A study of Mus musculus with 4 samples.

Results

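The genes described here encode the proteasome, its activators, its inhibitor and the chaperones that assemble it. They were taken by name: every protein-coding gene of GENCODE M21 whose whole symbol is Psm, a letter from a to g and digits, without the immunoproteasome genes Psmb8 and Psmb9. Of 46 such genes, 43 reached 1 FPKM (fragments per 1000000 in the library and per kilobase of exons) in at least 1 library and are called proteasome genes below, out of 12817 genes of any kind that did so. Just inside that limit was Psmg3, at 2.09 to 3.41 FPKM, and just outside it Psmd10, which encodes gankyrin, at 0.24 to 0.54 FPKM. The testis subunit gene Psma8 and the thymus subunit gene Psmb11 stood at 0.04 FPKM or less in all 4 libraries.

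The cells were primary mouse embryonic fibroblasts (MEFs), cultures grown from embryos and not an established line. The 4 cultures had all received 100 nM SAG, an agonist that turns on Hedgehog signalling through Smoothened, for 24 h. The first was wild type (WT) and the second carried a Dyrk2 knockout (Dyrk2-KO, Dyrk2-/-). The other two were WT cells given the control siRNA siNegative (siNeg) or the siRNA siDyrk2. Each group was 1 library, so each difference below is between libraries, with no replicate and no p-value. The labels used here do not name the knockout allele, the siRNA sequences, the embryonic day or how many embryos went into a culture.

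As background, the 26S proteasome is the ATP-dependent protease that degrades ubiquitin-tagged proteins. Its barrel-shaped core particle stacks rings of alpha subunits, which gate the entrance, on rings of beta subunits, which hold the active sites. A regulatory particle caps it: its base carries a ring of ATPases that unfold substrates, and its lid removes ubiquitin. DYRK2 is reported to phosphorylate an ATPase of that ring, the product of Psmc4 (Rpt3), and to raise proteasome activity. When proteasomes are inhibited, the transcription factor NRF1 (gene Nfe2l1) raises the transcription of subunit genes together. RNA levels show neither phosphorylation nor proteasome activity.

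Dyrk2 itself was at 6.59 FPKM in wild type, 0.57 in the knockout, 7.06 with siNeg and 0.81 with siDyrk2, which follows the labels. Estimated depth was 19980000 to 23930000 fragments. All 8 fibroblast markers were measured, with a summed level of 7376.8 in wild type, 8000.4 in the knockout, 7107.3 with siNeg and 5751.5 with siDyrk2. Single markers differed in both directions. The extremes in the knockout were Dcn (507.71 FPKM against 256.64 in wild type) and Thy1 (159.10 against 287.88). With siDyrk2 they were Pdgfrb (117.16 FPKM against 77.05 with siNeg) and Pdgfra (24.54 against 34.87). Of 5 endothelial markers 1 reached 1 FPKM, Tek at 2.55 to 4.63, with Kdr at up to 0.72 and Pecam1 at 0.05 or less, and their summed level was 3.5 to 5.3. Of 5 epithelial markers 1 reached 1 FPKM, Krt19, at 1.58 in wild type, 2.59 in the knockout, 2.64 with siNeg and 3.59 with siDyrk2, with Epcam at 0.06 or less and a summed level of 2.9 to 4.9. Of 10 macrophage and leukocyte markers 8 were measured, with Ptprc at 0.45 to 0.75 FPKM and a summed level of 218.1 in wild type, 448.9 in the knockout, 245.4 with siNeg and 303.2 with siDyrk2. In bulk samples, fewer cells of a type and less RNA per cell cannot be told apart. Exons of 11 proteasome genes overlap those of another annotated gene, among them Psmb7 with Nek6 and Psmd13 with Sirt3 on the opposite strand, 4 pseudogenes named after Psmb5, Psmb6 and Psmb7 were listed at 0 in every library, and the handling of such reads is not given in the sources used here.

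Most proteasome genes were moderately to highly expressed, with lower medians for the assembly and accessory genes than for the 26S subunit roles. In wild type the levels ran from 3.41 FPKM for Psmg3 to 74.75 for the alpha subunit gene Psma6, with a median of 28.9. The median was 32.2 FPKM over 7 alpha subunit genes, 51.6 over the 7 constitutive beta subunit genes, 53.5 over 6 ATPase genes and 28.0 over 8 lid genes. Assembly chaperone genes had a median of 9.38 FPKM over 6 genes. The 5 activator and inhibitor genes had 15.2, but their range overlapped that of the subunits, with Psme3 at 35.97 FPKM. Subunits that share a ring in fixed number thus did not share a level: the alpha ring spanned 9.52-fold, from Psma3 (7.85 FPKM) to Psma6.

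Part of that spread lay in the length used. The authors divided by all exonic bases of a gene, which for Psma7 is 3071 bases against 914 in its principal transcript. With fragments divided by the length of the principal transcript instead, a choice made after the values were seen, the 7 beta subunit genes lay within 1.72-fold in wild type, between 70.5 for Psmb5 and 121 for Psmb6, against 2.91-fold with the deposited FPKM. The 6 ATPase genes came within 1.84-fold, against 2.88-fold. The alpha ring stayed wide at 10.1-fold on that scale, with Psma3 lowest at 10.7 and Psma2 next at 34.5. These genes also had the longest principal transcripts of the ring, 2846 and 2911 bases, so their low values depend on that choice. In wild-type fragments, before any division by length, Psma3 had 731 and the next lowest alpha gene, Psma5, had 1223. Where a gene has several principal transcripts the longest was taken, and transcript usage was not measured. Ratios between libraries do not depend on the length, apart from the pseudocount.

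**Figure D1:**
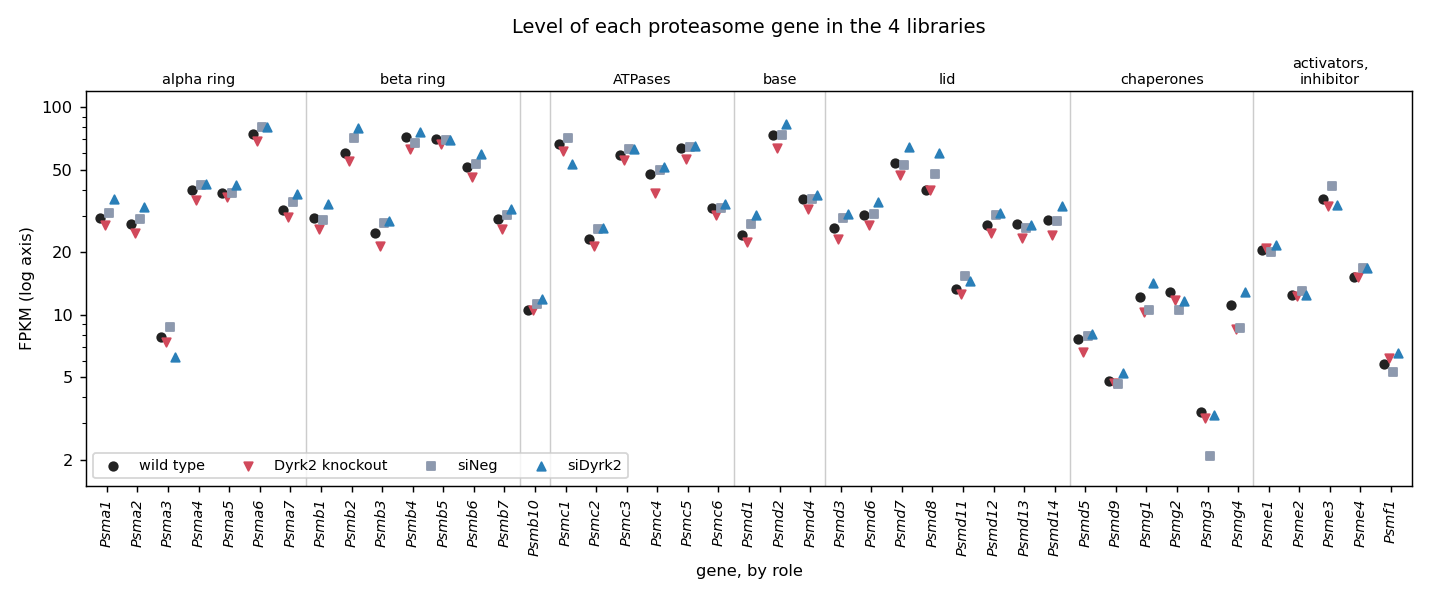
Level of each of the 43 proteasome genes, in FPKM on a log axis, with genes on the horizontal axis grouped by role and 1 symbol per library (no error bars, since each group is 1 library). The Dyrk2 knockout is the lowest library for 34 genes and siDyrk2 the highest for 33, and the highest library is at most 1.63-fold above the lowest for any gene.

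For each gene the libraries were compared by their extremes. The highest library stood above the lowest by 1.06-fold for Psmb5 and by at most 1.63-fold, for Psmg3. The summed level of all 43 was 1412.9 FPKM in wild type, 1283.2 in the knockout, 1471.3 with siNeg and 1558.1 with siDyrk2. The knockout was the lowest library for 34 genes, against 33.0% of all genes tested, and siDyrk2 the highest for 33, against 31.7%. 

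The first comparison asked how proteasome genes stood in cells without Dyrk2. Nearly all were slightly lower in the knockout than in wild type. Ratios are log2 of (FPKM + 1) over (FPKM + 1), a scale that shrinks the differences of weakly expressed genes. Of 43 genes 39 were lower and 4 higher, with a median log2 ratio of -0.12 (95% order-statistic interval over genes -0.16 to -0.11), where 55.6% of all genes tested were lower, 43.7% were higher and their median was -0.025. Such an interval, here and below, counts the genes as independent draws. They share libraries and are no replicates, so it covers no difference between cultures. None of the 43 was at least 2-fold different (1.78% of all genes). At least 1.1-fold lower were 18 genes (26.9% of all genes) and at least 1.1-fold higher 0 (20.1%).

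The ratios were also close to each other. Their quartiles were -0.18 and -0.08, an interquartile range of 0.10, against 0.25 over all genes tested and 0.22 over the 5300 genes of at least 10 FPKM. Counting error alone was judged by an exact 95% conditional binomial interval on the estimated fragments of both libraries, which covers no difference between cultures. That interval lay below a ratio of 1 for 30 proteasome genes and above it for 0. Of all genes tested 26.2% had it below 1 and 19.1% above, and of genes of at least 10 FPKM 33.0% and 23.5%.

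All 14 constitutive core particle genes were lower in the knockout (55.6% of all genes tested). The alpha subunit genes had a median log2 ratio of -0.11, from -0.06 for Psma5 to -0.16 for Psma4. The beta subunit genes had -0.16. Psmb5, Psmb6 and Psmb7 encode the catalytic subunits, which cut after hydrophobic, acidic and basic residues in that order. Psmb5 was at 70.48 FPKM in wild type, 66.47 in the knockout, 69.93 with siNeg and 69.47 with siDyrk2. Psmb6 was at 51.60, 46.06, 53.18 and 59.29 FPKM in the same order. Psmb7 was at 28.85, 25.83, 30.26 and 32.44 FPKM. For each of the catalytic genes the knockout was the lowest library. The knockout ratio without the pseudocount was 0.893 (counting interval 0.840 to 0.949) for Psmb6 and 0.896 (0.843 to 0.951) for Psmb7, and for Psmb5 it was 0.943 (0.875 to 1.02), an interval that holds 1. Among the other beta genes Psmb3 had the lowest log2 ratio, -0.19.

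In the regulatory particle 16 of 17 genes were lower in the knockout (55.6% of all genes tested), with a median of -0.15. The 26S subunit gene with the lowest ratio was Psmc4 (GRCm38 chr7:28041707-28050101), whose product is the reported DYRK2 substrate. It was at 47.90 FPKM in wild type, 38.79 in the knockout, 49.82 with siNeg and 51.83 with siDyrk2. The 3 libraries with a wild-type genotype lay between 47.90 and 51.83, and the knockout lay below them. The knockout level was 0.810 of wild type (0.762 to 0.860), and under the 5 scalings tried its log2 ratio was -0.32 to -0.28. The other ATPase genes lay closer to wild type, from -0.18 for Psmc5 to -0.08 for Psmc3.

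Of the base genes without ATPase activity, Psmd2, which encodes a scaffold and ubiquitin-receptor subunit, was at 0.868 of wild type (0.838 to 0.899), and the ubiquitin receptor gene Psmd4 at 0.889 (0.838 to 0.944). In the lid, Psmd14 (chr2:61711694-61800376) encodes the metalloprotease that takes ubiquitin chains off substrates. It was at 28.53 FPKM in wild type, 24.14 in the knockout, 28.36 with siNeg and 33.34 with siDyrk2. The controls nearly coincided, the knockout lay below them and siDyrk2 above. Psmd13, a lid subunit gene, had a log2 ratio of -0.22 in the knockout. Psmd8 was the regulatory particle gene that was not lower, at 39.76 and 40.08 FPKM.

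Among the genes outside the 26S particle, 9 of 12 were lower (55.6% of all genes tested), with a median of -0.05. The counting interval lay below 1 for 4 of the 12 (26.2% of all genes). All 6 assembly chaperone genes were lower in the knockout, with a median of -0.15. Psmg4, whose product helps to build the alpha ring, had the lowest ratio of all 43 genes, -0.34, at 8.57 against 11.15 FPKM. Those values rest on 104 and 148 fragments, and the counting interval was wide (0.592 to 0.994 of wild type). Psmd9 and Psmg3, at -0.02 and -0.07, were the chaperone genes nearest to wild type. Of the 5 activator and inhibitor genes 2 were lower, with a median of 0.00. Psme1 and Psme2 encode the interferon-inducible activator PA28, and they had log2 ratios of 0.03 and -0.01. Psme4, which encodes the activator PA200, had 0.00, and the proteasome inhibitor gene Psmf1 0.09, with counting intervals that held a ratio of 1. Psme3, which encodes the nuclear PA28 gamma, was at -0.11, with an interval below 1 (0.873 to 0.980). Psmb10, the remaining immunoproteasome subunit gene in the set, was at 10.57 and 10.54 FPKM. Psmd8, Psme1, Psme4 and Psmf1 were the genes with a ratio above 0, and for Psmd8 and Psme4 its sign changed under 1 of the 5 scalings. Psmb10 and Psme2, counted as lower, had a ratio below 0 under 3 of the 5 scalings.

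Under TMM and median-of-ratios scaling 37 of 43 genes were lower and the median was -0.10. The median over all genes was -0.008 and -0.006 under these scalings. With the deposited scaling all 16 genes of a list of cell division genes were lower in the knockout (55.6% of all genes tested), with a median of -1.23. With siDyrk2 14 of the 16 were lower than with siNeg (45.0% of all genes), with a median of -0.23. With siNeg all 16 were higher than in wild type (48.3%), with a median of 0.41. The summed level of macrophage and leukocyte markers was also higher in the knockout, as given above. The part of either list in the proteasome values was not tested.

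**Figure D2:**
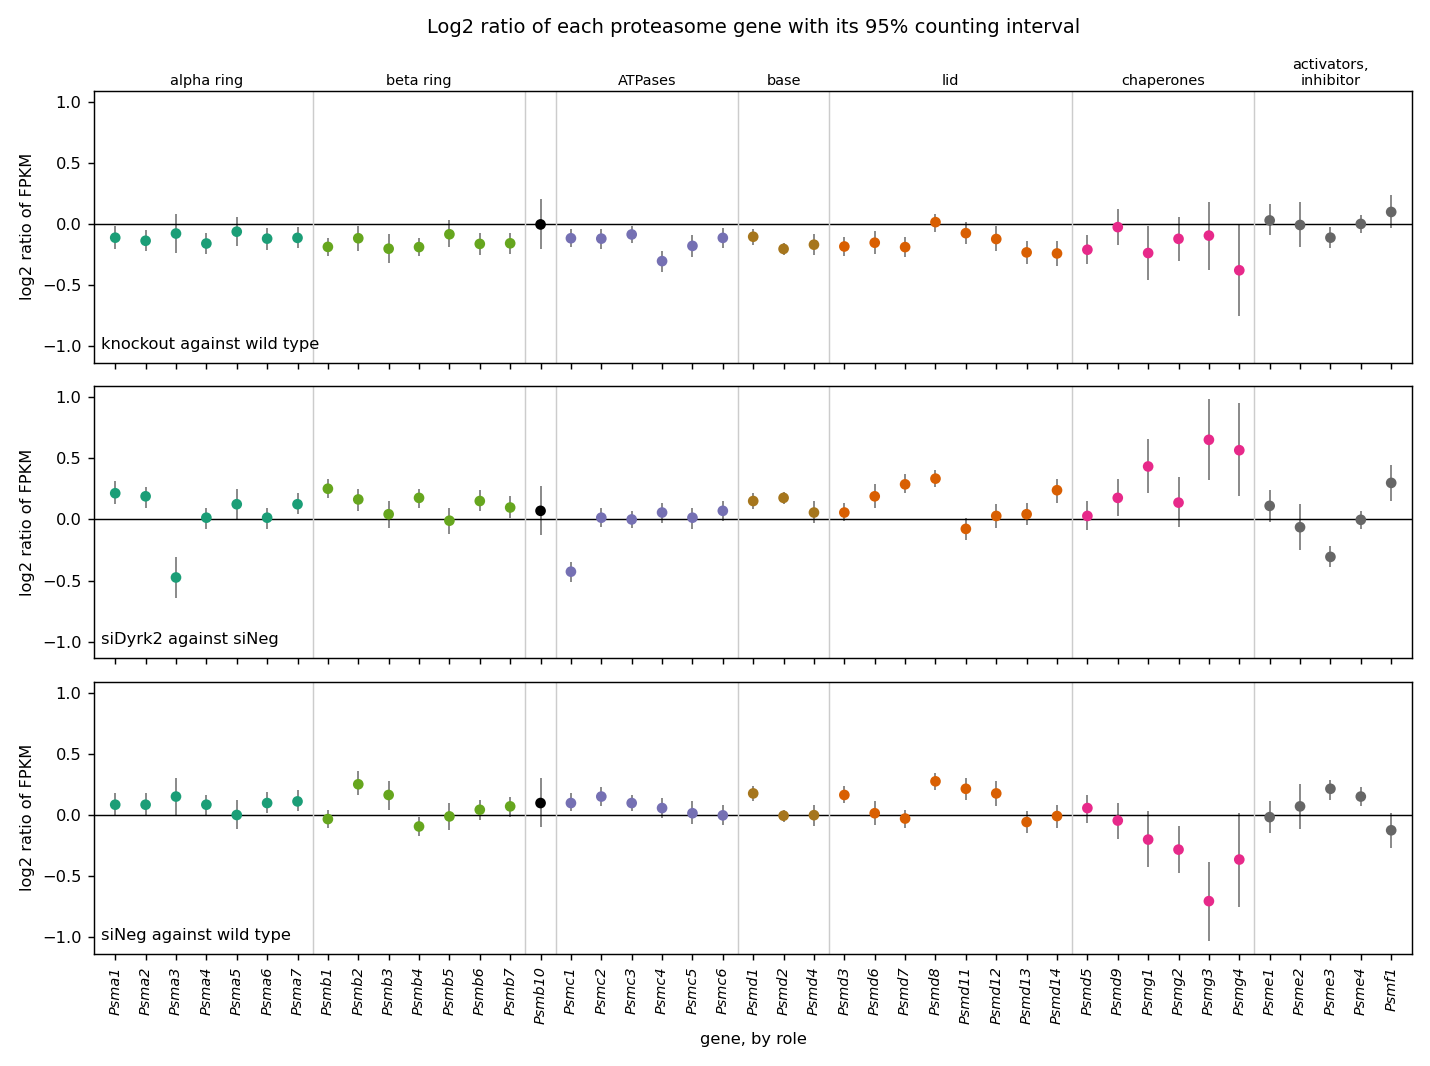
Log2 ratio of the deposited FPKM, without pseudocount, for each of the 43 proteasome genes (horizontal axis, by role and colour) in the 3 comparisons; points are ratios and bars exact 95% counting intervals. In the knockout 39 points lie below 0, with siDyrk2 Psma3, Psmc1 and Psme3 stand apart below the rest, and the 4 Psmg genes are low in siNeg against wild type.

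The second comparison asked how the same genes stood after Dyrk2 was lowered by siRNA. Here most proteasome genes were slightly higher, 3 were clearly lower, and the overall direction depended on the scaling. Of 43 genes 36 were higher with siDyrk2 than with siNeg (54.3% of all genes tested) and 7 lower (45.0%), with a median of 0.10 (0.04 to 0.15) against 0.02 over all genes. At least 1.1-fold higher were 17 (31.9% of all genes), a share not far from that of all genes, and at least 1.1-fold lower 3 (23.9%). The counting interval lay above 1 for 20 genes (28.3% of all genes) and below 1 for 3 (23.1%). None was at least 2-fold different (1.54%). Genes with high levels tended to be higher with siDyrk2 in general: of the 1882 genes of at least 30 FPKM 65.1% were higher, with a median of 0.08, beside 24 of 27 proteasome genes at that level, with a median of 0.12.

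With TPM scaling, which divides by the sum of FPKM, the siDyrk2 median was 0.03 and 21 of 43 genes were lower. With TMM and median-of-ratios scaling 13 and 15 genes were lower. The median over all genes moved too, to 0.0 with TMM, -0.011 with median-of-ratios and -0.036 with TPM scaling. The proteasome medians were 0.068, 0.055 and 0.026 in that order. Shares of all genes lower are not given for these scalings. The siDyrk2 library had the largest sum of FPKM, 268274 against 254860 with siNeg. A general direction with siDyrk2 is therefore not stated here, and the differences between genes within the comparison, which scaling leaves nearly the same, are given instead.

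Psma3 (chr12:70974621-70996347), Psmc1 (chr12:100110154-100123405) and Psme3 (chr11:101316213-101323537) stood apart as lower with siDyrk2. The alpha subunit gene Psma3 was at 7.85 FPKM in wild type, 7.43 in the knockout, 8.69 with siNeg and 6.26 with siDyrk2. Psmc1, an ATPase gene, was at 66.83, 61.64, 71.44 and 53.15 FPKM in that order. Psme3 was at 35.97, 33.28, 41.63 and 33.70 FPKM. For Psma3 and Psmc1 siDyrk2 was the lowest of the 4 libraries, and for Psme3 it lay between the knockout and wild type. Against siNeg the siDyrk2 level was 0.720 (0.641 to 0.808) for Psma3, 0.744 (0.703 to 0.787) for Psmc1 and 0.809 (0.764 to 0.858) for Psme3. Under the 5 scalings the log2 ratios stayed between -0.48 and -0.42 for Psma3, between -0.49 and -0.42 for Psmc1 and between -0.37 and -0.29 for Psme3. The next lowest gene, the lid gene Psmd11, was at -0.07. In siNeg these genes were above wild type, at 0.13, 0.10 and 0.21, so siNeg was the highest library for each of them.

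Their ring partners had ratios near or above 0. With the deposited scaling the other 6 alpha subunit genes were at 0.01 to 0.21 with siDyrk2, led by Psma1 and Psma2 (0.18). Under the other scalings Psma4 and Psma6 reached -0.06 and Psma1, Psma2, Psma5 and Psma7 stayed above 0. The other 5 ATPase genes lay between 0.00 for Psmc3, which was at -0.07 under its lowest scaling, and 0.07 for Psmc6, and Psmc4 was at 0.06 (ratio 1.04, 0.981 to 1.1). The siDyrk2 ratio of Psmc4 was near 0 under every scaling, between -0.02 and 0.06, unlike its lower value in the knockout, and this difference between comparisons was not tested. The ATPase list as a whole had a median of 0.01, which was -0.06 with TPM scaling.

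The largest higher values with siDyrk2 were in assembly chaperone genes. Psmg1 was at 12.16 FPKM in wild type, 10.31 in the knockout, 10.58 with siNeg and 14.28 with siDyrk2. Psmg3 was at 3.41, 3.19, 2.09 and 3.28 FPKM, and Psmg4 at 11.15, 8.57, 8.66 and 12.84. Against siNeg the siDyrk2 level was 1.35 (1.16 to 1.58) for Psmg1, 1.57 for Psmg3 and 1.48 (1.14 to 1.93) for Psmg4. The siNeg level was low for each of them, and Psmg3 was nearly equal in wild type and siDyrk2. Among subunit genes Psmd8 was at 60.39 FPKM with siDyrk2 and 47.94 with siNeg, a ratio of 1.26 (1.20 to 1.32). The lid genes Psmd7 (1.22, 1.16 to 1.29) and Psmd14 (1.18, 1.1 to 1.26) and the beta subunit gene Psmb1 (1.19, 1.13 to 1.26) followed. The inhibitor gene Psmf1 was at 6.51 against 5.31 FPKM, a ratio of 1.23 (1.11 to 1.36). For Psmd8, Psmd7, Psmd14, Psmb1 and Psmf1 the log2 ratio was above 0 under each of the 5 scalings.

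**Figure D3:**
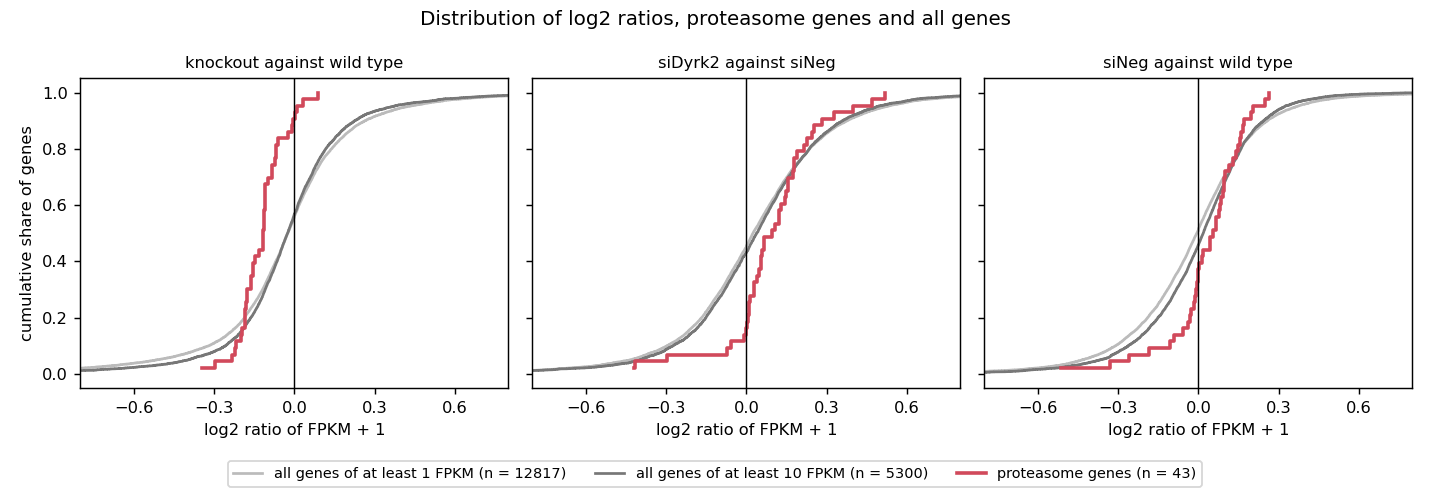
Cumulative share of genes (vertical axis) by log2 ratio of FPKM + 1 (horizontal axis, drawn from -0.8 to 0.8) in the 3 comparisons, for the 43 proteasome genes, all 12817 genes of at least 1 FPKM and the 5300 of at least 10 FPKM. The knockout curve of the proteasome genes is steep and lies to the left, with 39 of 43 below 0, while with this scaling the siDyrk2 and siNeg curves lie slightly to the right for most genes.

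The third comparison set the controls side by side, which both had intact Dyrk2. These libraries also differ by the control siRNA treatment. Its effect and differences between cultures cannot be told apart here. Of 43 genes 27 were higher with siNeg than in wild type (48.3% of all genes tested) and 16 lower (51.0%), with a median of 0.06 (-0.003 to 0.09) against -0.01 over all genes. At least 1.1-fold higher were 10 genes (22.8%) and at least 1.1-fold lower 4 (26.6%), and none was at least 2-fold different (0.928%). The counting interval lay above 1 for 15 genes (22.9%) and below 1 for 3 (23.6%). The quartiles were -0.01 and 0.12, a range of 0.14. Of the 5300 genes of at least 10 FPKM 2869 were higher with siNeg, with a median of 0.018. Beside them stood 25 of 38 proteasome genes at that level, with a median of 0.065. The control median of 0.06 stands beside -0.12 in the knockout, and the interval of the control median over genes holds 0. Single genes did differ between the libraries with intact Dyrk2, as counted above. How these medians relate was not tested.

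Among the roles, the assembly chaperone genes had the median farthest from 0 between the controls. It was -0.22, with 5 of 6 lower with siNeg (51.0% of all genes tested). Psmg3 was at -0.51, Psmg4 at -0.33, Psmg2 at -0.26 and Psmg1 at -0.18, and these were the 4 genes at least 1.1-fold lower. The counting interval lay below 1 for Psmg2 (0.718 to 0.941 of wild type) and Psmg3 (0.489 to 0.768), and held 1 for Psmg1 and Psmg4. The products of Psmg1 and Psmg2 act as a pair, as do those of Psmg3 and Psmg4, early in alpha ring assembly. On the higher side were Psmd8 (1.21, 1.15 to 1.27), Psmb2 (1.19, 1.12 to 1.28), Psme3 (1.16, 1.09 to 1.22) and Psmd11 (1.16, 1.09 to 1.23). This comparison shares wild type with the knockout comparison and siNeg with the siRNA comparison, so a low or high control value enters both.

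Setting the knockout and siRNA comparisons side by side is free of that overlap, since they used separate libraries. Of 43 genes 33 were lower in the knockout and higher with siDyrk2, against 26.4% of all genes tested, 6 were lower in both and 3 higher in both. At least 1.1-fold lower in the knockout and at least 1.1-fold higher with siDyrk2 were 9 genes (6.66% of all genes), and at least 1.1-fold lower in both were 0 (9.44%). Across the 43 genes, which are no replicates and share libraries, Pearson's r between the log2 ratios was -0.21 and Spearman's rho -0.23. These counts depend on the scaling. With TPM scaling 20 genes were lower in the knockout and higher with siDyrk2 (22.4% of all genes), and 5 passed 1.1-fold in both of these directions (5.65%).

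**Figure D4:**
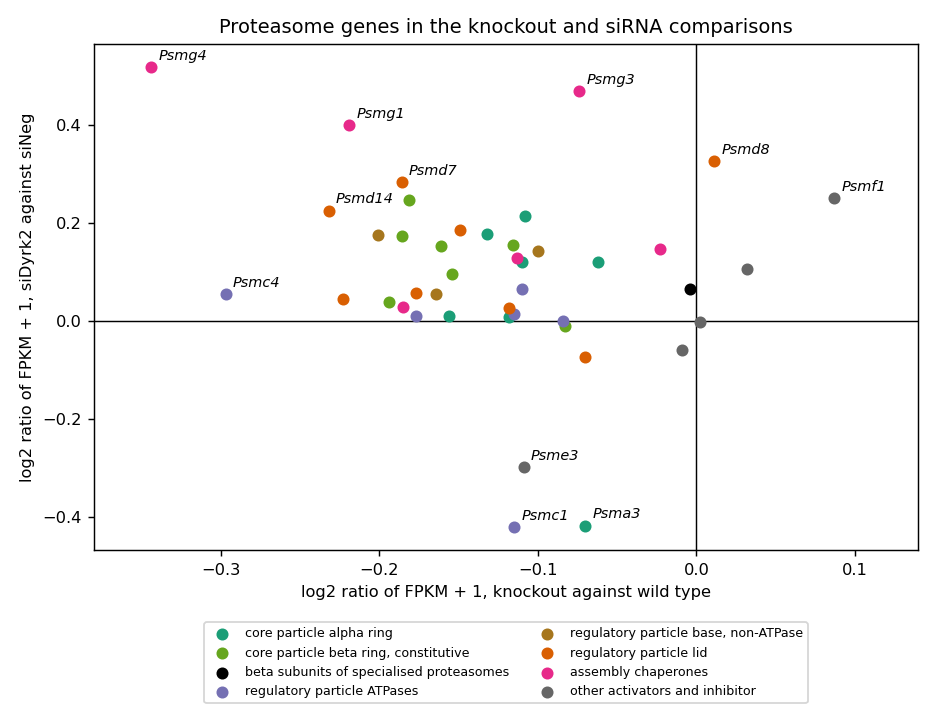
Log2 ratio of FPKM + 1 in the knockout against wild type (horizontal axis) and with siDyrk2 against siNeg (vertical axis) for each of the 43 proteasome genes, coloured by role. The upper left part holds 33 genes (20 with TPM scaling), Psma3, Psmc1 and Psme3 lie at the bottom, and Psmc4 lies to the left near 0 on the vertical axis.

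Promoters were read for the genes on which these results turn. RefSeq windows on GRCm38.p6, from 250 bases before to 50 bases after the start site, were found for 36 of the 43 genes (39 windows). Psmc4 is shown because it was the lowest subunit gene in the knockout, Psmb5 because it hardly differed between libraries, and Psma3, Psmc1 and Psme3 because they were lower with siDyrk2. Only bases before both the RefSeq start and the GENCODE start are printed, 5′ to 3′ on the strand of the gene. They are Psmc4 at chr7:28050102-28050342 on the minus strand, Psmb5 at chr14:54618023-54618245 on the minus strand, Psma3 at chr12:70974373-70974620 on the plus strand, Psmc1 at chr12:100109952-100110153 on the plus strand and Psme3 at chr11:101315963-101316212 on the plus strand. Capitals mark motifs found on either strand. The GC box was searched as GGGCGG. The CCAAT box was searched by the letters of its name. The core of the antioxidant response element, which NRF1 and NRF2 bind, was searched as TGANNNNGC. The TATA box was searched as TATAAA.
Psmc4: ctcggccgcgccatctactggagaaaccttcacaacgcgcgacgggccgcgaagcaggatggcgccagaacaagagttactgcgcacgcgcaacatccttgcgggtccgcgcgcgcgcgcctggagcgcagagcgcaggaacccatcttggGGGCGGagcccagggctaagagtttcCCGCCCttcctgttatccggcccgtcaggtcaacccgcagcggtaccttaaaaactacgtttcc
Psmb5: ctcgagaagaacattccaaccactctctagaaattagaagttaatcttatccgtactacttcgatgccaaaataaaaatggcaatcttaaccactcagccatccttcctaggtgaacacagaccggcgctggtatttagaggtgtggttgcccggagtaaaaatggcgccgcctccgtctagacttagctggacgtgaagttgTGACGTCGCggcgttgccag
Psma3: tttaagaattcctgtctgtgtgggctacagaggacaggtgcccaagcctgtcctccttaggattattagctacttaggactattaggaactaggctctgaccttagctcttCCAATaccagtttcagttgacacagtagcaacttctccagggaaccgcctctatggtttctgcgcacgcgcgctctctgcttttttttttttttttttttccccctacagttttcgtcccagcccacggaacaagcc
Psmc1: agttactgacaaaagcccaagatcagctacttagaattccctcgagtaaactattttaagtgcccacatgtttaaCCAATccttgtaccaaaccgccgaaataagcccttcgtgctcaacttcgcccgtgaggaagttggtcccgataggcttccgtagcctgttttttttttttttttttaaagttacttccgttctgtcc
Psme3: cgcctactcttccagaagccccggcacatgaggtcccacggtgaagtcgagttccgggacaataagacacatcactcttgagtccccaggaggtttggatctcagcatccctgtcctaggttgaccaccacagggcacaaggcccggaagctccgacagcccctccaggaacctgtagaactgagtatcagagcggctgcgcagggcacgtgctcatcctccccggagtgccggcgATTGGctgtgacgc

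Psmc4 holds a pair of GC boxes, Psmb5 an antioxidant response element core, and Psma3, Psmc1 and Psme3 each a CCAAT box. Over all windows of proteasome genes the GC box was found in 56.4%, the CCAAT box in 28.2%, the antioxidant response element core in 56.4% and the TATA box in 7.69%, on either strand and with overlaps between motifs allowed. Over all 32851 windows of the table the shares were 35.7%, 37.4%, 41.3% and 13.6%. Over the 11544 windows of the genes tested here they were 64.2%, 38.0%, 42.9% and 6.97%. A CCAAT box was found in 11 of 36 proteasome genes, among them Psma1, Psma2 and Psmd14, which were higher with siDyrk2. A match of these letters is a description of the window and no evidence of binding.

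The partners of the proteasome that carry other names were looked at as a list of 22 genes, all measured. In the knockout 17 were lower (55.6% of all genes tested) and 5 higher (43.7%), with a median of -0.08. Uchl5, a deubiquitinase of the regulatory particle, had the lowest ratio, -0.44, at 5.01 against 7.13 FPKM (6.19 with siNeg and 6.90 with siDyrk2). The deubiquitinase gene Usp14 was at -0.18 and Vcp, the segregase that extracts ubiquitinated proteins, at -0.17. Zfand5 (0.22), Nfe2l2, which encodes NRF2 (0.20), and Nfe2l1 (0.15) were the highest. With siDyrk2 10 of 22 were lower, about the share of all genes tested (45.0%), and the median was 0.01.

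Among these partners, Nfe2l1, Ddi2 and Ngly1 are described because of their siDyrk2 values, a choice made after the values were seen. Of the 22 partners 5 were at least 1.1-fold lower with siDyrk2, a share close to the 23.9% of all genes tested. At least 1.1-fold higher were 2 (31.9%). Besides the genes named, Ubqln1 (log2 ratio -0.24) and Ubqln2 (-0.15) were lower to that extent. Nfe2l1 was at 82.03 FPKM in wild type, 90.96 in the knockout, 88.34 with siNeg and 67.39 with siDyrk2. Ddi2, the protease that cuts NRF1 into its active form, was at 7.60, 6.88, 7.82 and 6.40 FPKM. Ngly1, which removes its sugars, was at 5.01, 5.20, 5.09 and 3.98 FPKM. The lowest library was siDyrk2 for each of them, with log2 ratios of -0.39, -0.25 and -0.29 against siNeg. Vcp, which also acts on NRF1 by drawing it out of the endoplasmic reticulum, was at 67.57 FPKM with siDyrk2 and 60.45 with siNeg, a log2 ratio of 0.16. Sem1, the smallest lid subunit gene, had the highest siDyrk2 ratio of the partners, 0.25.

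The antigen processing genes, which include the left-out subunit gene Psmb8, were higher in the knockout in 7 of 8, with a median of 0.28. Of all genes tested 43.7% were higher in it. Tapbp was at 0.39, B2m at 0.39 and Psmb8 at 2.12 against 1.55 FPKM. Psmb9 was below 1 FPKM in each library. With siDyrk2 3 of 8 were higher than with siNeg (54.3% of all genes) and 5 lower, with a median of -0.10. Psmb8 was among those higher, at 2.63 against 1.73 FPKM. With siNeg 7 of 8 were higher than in wild type (48.3%), with a median of 0.09. The macrophage markers given above were higher in the knockout too, and their part in the antigen processing values was not tested.

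Genes of other large protein complexes were also mostly lower in the knockout, to differing extents. In the knockout 55.6% of all genes tested were lower, with a median of -0.025. All 8 CCT chaperonin genes were lower in the knockout, with a median of -0.16, among them Cct3 at -0.34. All 9 genes of the COP9 signalosome, a relative of the lid, were lower, with a median of -0.08, and 10 of 13 genes of the translation factor eIF3, with -0.05. With siDyrk2 the medians were 0.09, 0.01 and 0.11, and for siNeg against wild type 0.02, 0.06 and 0.04. The proteasome values of -0.12, 0.10 and 0.06 lie within or next to these, and no difference between the proteasome and these complexes was tested.

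**Figure D5:**
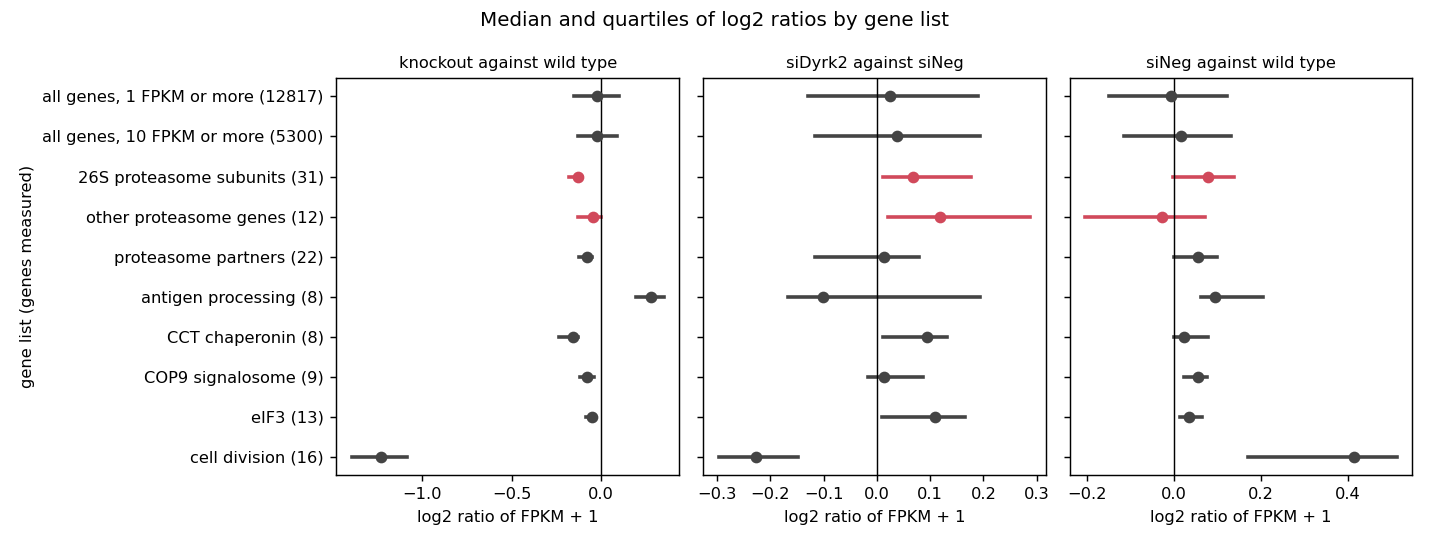
Median (point) and quartiles (bar) of the log2 ratio of FPKM + 1 by gene list, with the number of measured genes in brackets, in the 3 comparisons; the horizontal scales differ between panels. The 26S subunits lie at -0.13 in the knockout beside the CCT chaperonin at -0.16, and cell division genes lie far lower at -1.23.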

How the data were processed

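RNA sequencing of 4 libraries, 1 per group, was analysed. Per the labels' protocols, stranded libraries were made after polyA selection, and the tools listed in the submitters' processing notes are HISAT2 2.0.1 and cutadapt 1.9.1, with the genome build GRCm38. The deposited values are FPKM per gene with the authors' exonic lengths, per the file headers; which program counted the fragments, and on which gene models, is not given in the sources used here. FPKM times kilobases summed to 1000000 within rounding in each library. Of 55573 gene identifiers 55394 matched GENCODE M21, which gave symbols and coordinates.

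Depth was found as the smallest number of fragments that made the FPKM of genes of at most 200 bases whole within rounding (100% of 341 to 402 genes per library). It gave fragments per gene and exact 95% intervals. These steps were run on simulated libraries that held counting error alone, so that check does not bear on differences between cultures. Ratios used a pseudocount of 1 FPKM and genes of at least 1 FPKM in any library. TMM scaling was computed on FPKM times length. Python 3.11.15, numpy 2.4.6, pandas 2.3.3 and scipy 1.17.1 were used. Alternatives were other pseudocounts, filters and scalings, and lists without genes that have pseudogenes, overlaps or immune induction. With 1 library per group no test was run and leaving out a replicate was not possible. Principal transcripts were those of best APPRIS rank, and promoter windows came from RefSeq. The members, lists and naming rule (all members, in full for Psmc4, catalytic, deubiquitinase, accessory genes and extremes) were chosen with earlier results of these data known. One further gene list is not reported here.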

Additional observations from a re-analysis of the deposited data

Results flagged for a closer look

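With the deposited scaling the knockout and siRNA medians of proteasome genes had opposite signs. The median log2 ratio was -0.12 for knockout against wild type and 0.10 for siDyrk2 against siNeg. The first minus the second was -0.21. With TPM scaling the siDyrk2 median was 0.03, beside -0.036 over all genes, and 21 of 43 genes were lower. No general siDyrk2 direction is therefore stated. The difference was not tested, since each comparison rests on 1 library per group.

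The genes at least 1.1-fold lower in the knockout and at least 1.1-fold higher with siDyrk2 were 9 (6.66% of all genes tested), again untested. They were 7 with TMM (5.46%), 5 with median-of-ratios (5.11%) and 5 with TPM scaling (5.65%). The knockout minus the siDyrk2 log2 ratio was -0.43 for Psmb1, -0.36 for Psmb4, -0.32 for Psmb6, -0.46 for Psmd14, -0.38 for Psmd2, -0.34 for Psmd6, -0.47 for Psmd7, -0.62 for Psmg1 and -0.86 for Psmg4. For Psmg1 and Psmg4 the siNeg library was also below wild type, at 10.58 against 12.16 FPKM and 8.66 against 11.15 FPKM. No group held the 4 samples needed to look for an outlying library.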

How the results depend on the processing

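In the knockout the median of proteasome genes was negative under all 12 alternatives, from -0.14 with TPM scaling to -0.10 (-0.096 with TMM and -0.095 with median-of-ratios scaling), and 0 genes were at least 1.1-fold higher under each. Over all genes the median was -0.043 with TPM, -0.008 with TMM and -0.006 with median-of-ratios scaling. With siDyrk2 the median stayed above 0 but was 0.026 with TPM scaling, beside -0.036 over all genes. The number of genes lower with siDyrk2 was 13 with TMM, 15 with median-of-ratios and 21 with TPM scaling, and 3 of the 27 left by a filter of 30 FPKM; the number at least 1.1-fold higher was 10 with median-of-ratios and 9 with TPM scaling. For siNeg against wild type 10 genes were lower with median-of-ratios scaling, and with the 30 FPKM filter 8 were lower, 0 at least 1.1-fold lower and 6 at least 1.1-fold higher. That filter and the leaving out of genes that overlap another gene were chosen after seeing the data. Counts under filters are smaller by construction.

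The number of all genes at least 2-fold different was 228, 198 and 119 in the knockout, siDyrk2 and siNeg comparisons. It was 607, 506 and 340 with a pseudocount of 0.1 FPKM, 22, 33 and 11 with 5 FPKM, 56, 57 and 15 with a filter of 10 FPKM, 14, 29 and 9 with a filter of 30 FPKM, and 117, 89 and 18 with protein-coding genes only.

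Leaving out a replicate was not possible with 1 library per group. No paired analysis was possible because each group holds 1 library. Counting intervals show depth alone; Psmg4 and Psmg3, with few fragments, have the widest.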
